A study of Mus musculus with 12 samples.

Results

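The NR4A orphan nuclear receptors are Nr4a1 (Nur77), Nr4a2 (Nurr1) and Nr4a3 (Nor1), and their transcripts were followed here in regulatory T cells (Treg) with and without Ikaros. The 3 genes were taken by symbol from a table of 36222 genes, and each symbol had 1 row. RNA-seq was available for 12 libraries in 4 groups of 3. All cells were Treg of single mice, derived from spleen by their labels (the methods of the study also name lymph nodes) and, for the ex vivo cells, from mice aged 6 to 8 weeks. They were sorted by the yellow fluorescent protein that comes with a Cre recombinase expressed from the Foxp3 locus. WT mice carried this Foxp3-YFP-Cre alone, so the controls have the Cre as well, and cKO mice carried it with a floxed Ikzf1 gene, which encodes Ikaros. Each genotype was profiled ex vivo, meaning without culture, and stimulated, meaning after 4 h on plate-bound antibodies to CD3 and CD28 at 1 µg/ml each. Deletion is limited to cells that express, or once expressed, Foxp3. Whether ex vivo and stimulated cells came from the same animals was not given in the sources used here.

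NR4A proteins are nuclear receptors without a known physiological ligand that they need, and their activity follows mainly how much of each is made. Their genes are immediate early genes, switched on within minutes to hours when the T cell receptor signals through calcium, and Nr4a1 is widely used as a reporter of such signalling. The proteins bind the NBRE element as monomers, and Nr4a1 and Nr4a2 can also pair with retinoid X receptors (RXR). In Treg the family is known for sustaining Foxp3 expression and Treg identity.

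Between 8208659 and 20247649 reads per library were assigned to genes, and 1775 to 37750 of them fell on any single NR4A gene, so counting error was small beside the differences between libraries. Ikzf1, the targeted gene, stood at 66.4 to 125 TPM (transcripts per 1000000) in the WT libraries and at 17.04 to 44.3 TPM in the cKO libraries. A single repeat-like transcript, Gm10800, took 17.7 to 55.9% of the TPM of a library, with the highest share in cKO stimulated replicate 3, and it moved the TPM of all other genes with it. WT ex vivo replicate 3 held Xist, an RNA made from the inactive X chromosome of female cells, at 179 TPM against at most 1.36 TPM in the other 11 libraries, and the labels give no sex. Of 8 Treg marker genes, all were above 1 TPM in every group, with summed levels of 960.3 to 2946 TPM, while 5 B cell markers summed to 12.3 to 29.9 TPM and 4 myeloid markers to 5.65 to 13.5 TPM. In bulk RNA, fewer cells of a type and less RNA per cell cannot be told apart.

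The members lie apart in the genome and share a promoter feature, which is shown here because all 3 belong to the same group of early genes. On mm9, Nr4a1 (ENSMUSG00000023034) spans chr15:101097277-101105223 on the plus strand, Nr4a2 (ENSMUSG00000026826) chr2:56959241-56976414 on the minus strand and Nr4a3 (ENSMUSG00000028341) chr4:48058025-48099319 on the plus strand, and no other annotated gene overlaps any of them. RefSeq promoter windows of 250 bases before and 50 after the start (GRCm38.p6) were found for 3 of 3 members, and each matched mm9 exactly once. TGACG, the core of the cAMP response element to which CREB binds, is in capitals below, read as TGACG or, on the other strand, as CGTCA. The sequences run 5′ to 3′ on the strand of the gene and stop at the start of transcription, or for Nr4a3 at the earlier start that the GENCODE annotation gives. They lie at chr15:101097027-101097276 (Nr4a1), chr2:56976415-56976664 (Nr4a2) and chr4:48057927-48058024 (Nr4a3).
Nr4a1: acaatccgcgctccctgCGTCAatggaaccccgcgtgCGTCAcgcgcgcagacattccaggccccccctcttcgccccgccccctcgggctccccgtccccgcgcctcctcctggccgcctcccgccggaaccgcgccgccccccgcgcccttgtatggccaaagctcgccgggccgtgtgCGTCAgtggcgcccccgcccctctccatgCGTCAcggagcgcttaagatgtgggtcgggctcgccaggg
Nr4a2: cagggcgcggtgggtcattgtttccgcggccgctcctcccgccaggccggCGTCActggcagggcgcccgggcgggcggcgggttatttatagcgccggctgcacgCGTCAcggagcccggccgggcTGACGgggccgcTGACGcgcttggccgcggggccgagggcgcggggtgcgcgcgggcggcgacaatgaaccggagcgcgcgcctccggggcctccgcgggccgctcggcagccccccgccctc
Nr4a3: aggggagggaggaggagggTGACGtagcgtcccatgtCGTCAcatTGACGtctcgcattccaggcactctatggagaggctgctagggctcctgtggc

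Each of the 3 windows held TGACG 4 times. The matches began 233, 213, 69 and 40 bases upstream of the start in Nr4a1, 200, 144, 123 and 111 bases upstream in Nr4a2, and 231, 213, 205 and 147 bases upstream in Nr4a3, where the last lies beyond the printed stretch. Among all 32851 promoter windows of this length, 20.8% held at least 1 such match and 0.231% held at least 4. Of the 250 bases before the start, 74.4% (Nr4a1), 80.0% (Nr4a2) and 63.6% (Nr4a3) were G or C. The shares over all windows, here and below, were not matched for this composition. The full palindrome TGACGTCA, which contains TGACG on both strands, was in none of the 3 windows and in 1.79% of all windows. TATAAA was found once, in Nr4a2, 164 bases upstream and on the opposite strand, against 13.6% of all windows. No window of a member held the AP-1 element TGACTCA (5.2% of all windows), the NBRE AAAGGTCA (1.51%), the Ikaros core GGGAA (62.7%), the forkhead element GTAAACA (3.65%) or the NFAT core GGAAAA (23.4%). Both strands were searched, and these are matches of letters within 300 bases, not bound sites.

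All 3 members were already abundant ex vivo. Nr4a1 was the most abundant of 49 nuclear receptors in every group, Nr4a3 the second and Nr4a2 the third, all on the per-length TPM scale. In WT ex vivo cells Nr4a1 averaged 975 ± 247 TPM (SD, n = 3), Nr4a3 144 ± 53.2 TPM and Nr4a2 93.3 ± 29.5 TPM, and the next receptor, Nr1h2 (the oxysterol receptor LXRβ), 41.02 ± 11.3 TPM. By group mean Nr4a1 ranked between 38 and 76 among all 36222 genes. The ranges of Nr4a3 and Nr4a2 in WT ex vivo libraries overlapped, at 109 to 205 and 73.5 to 127 TPM, so their order there rests on the means, although Nr4a3 exceeded Nr4a2 within each of the 12 libraries.

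Nr4a1, the member most often used to read T cell receptor signalling, had its highest levels in WT ex vivo cells. Before culture its TPM were 1089, 692 and 1145 in the WT libraries and 688, 636 and 642 in the cKO libraries. After 4 h of stimulation they were 733, 669 and 851 in WT cells and 710, 715 and 388 in cKO cells. The WT and cKO ex vivo libraries did not overlap, but only by a narrow margin between 692 and 688 TPM, while stimulated WT and cKO libraries did overlap. The value of 388 TPM belonged to cKO stimulated replicate 3, the library with most Gm10800, and it was also the lowest of the 12 for Nr4a2.

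Nr4a2, which encodes Nurr1, stood at 127, 73.5 and 79.2 TPM in ex vivo WT cells, against 179, 165 and 171 TPM where Ikaros was deleted. After stimulation the libraries read 112, 120 and 137 TPM for WT and 94.2, 110 and 61.2 TPM for cKO. The 3 cKO ex vivo libraries lay above all other 9 libraries.

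Nr4a3, which encodes Nor1, had its lowest group in WT ex vivo. The ex vivo WT libraries held 205, 109 and 118 TPM and the ex vivo cKO libraries 251, 210 and 216 TPM. The stimulated libraries held 301, 268 and 350 TPM (WT) and 321, 334 and 168 TPM (cKO). The WT stimulated libraries lay above the WT ex vivo libraries, whereas the cKO stimulated libraries lay on both sides of the cKO ex vivo libraries.

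**Figure D1:**
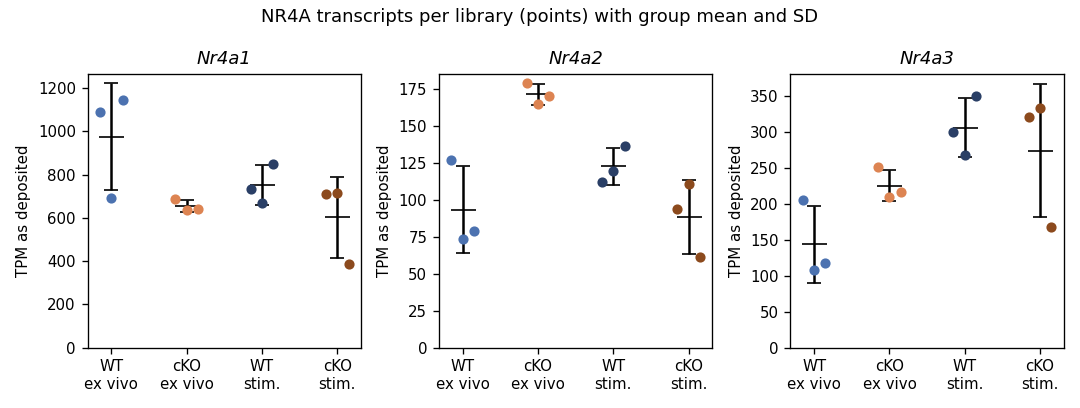
TPM of Nr4a1, Nr4a2 and Nr4a3 as deposited (vertical axes from 0) in the 12 libraries by group, with each library as a point, the group mean as a bar and the SD as whiskers. Nr4a1 is highest in WT ex vivo (975 ± 247 TPM), Nr4a2 in cKO ex vivo (172 ± 7.02 TPM) and Nr4a3 in WT stimulated cells (306 ± 40.9 TPM).

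To ask how the family differed ex vivo with loss of Ikaros, WT and cKO ex vivo Treg were compared after scaling the libraries to each other. Nr4a1 was lower in cKO and Nr4a2 was higher, so that these relatives moved in opposite directions. Scaled Nr4a1 averaged 1022 ± 183 TPM (SD, n = 3) in WT against 591 ± 57.7 TPM where Ikaros was lost, which is -0.78 on the log2 scale (SE 0.17, 95% interval -1.15 to -0.40, limma adjusted p = 0.0251). Scaled Nr4a2 averaged 96.98 ± 16.5 TPM against 154.7 ± 14.8 TPM, which is 0.68 on the log2 scale (SE 0.17, 95% interval 0.31 to 1.04, limma adjusted p = 0.0407). Nr4a3 had a change of 0.46 (SE 0.19, limma adjusted p = 0.231) and did not pass. Calls were made on genes reaching a group mean of 5 TPM, of which 5.29% were called in this comparison, 3.62% as higher and 1.67% as lower. With the wider filter of 1 TPM, which admits 33873 genes in place of 13318, the changes were -0.79 and 0.66 but neither passed (limma adjusted p = 0.630 and 0.695), and 0.168% of genes were called (0.13% as higher, 0.0384% as lower).

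Neither ex vivo call passed on unscaled TPM (limma adjusted p = 0.385 for Nr4a1 and 0.0844 for Nr4a2). Nor did either pass with the replicate number as a block (limma adjusted p = 0.0618 and 0.0659). Both ex vivo calls were also sensitive to single libraries. Nr4a1 had limma adjusted p-values of 0.0618 without WT ex vivo replicate 1, 0.0828 without WT ex vivo replicate 3 (log2 -0.65), and 0.0524, 0.0842 and 0.0889 without cKO ex vivo replicates 1, 2 and 3. Nr4a2 had limma adjusted p-values of 0.109 and 0.143 without WT ex vivo replicates 2 and 3 (log2 0.58 without the latter), 0.146, 0.0666 and 0.116 without cKO ex vivo replicates 1, 2 and 3, 0.0547 and 0.0645 without WT stimulated replicates 2 and 3, and 0.0528 without cKO stimulated replicate 1. The direction of neither gene changed when any 1 library was left out. Effector Treg markers moved with the same comparison: the sum of 6 genes, on TPM as deposited, ranged from 187 to 240 TPM (WT) and from 335 to 353 TPM (cKO). Of these 6, 4 were called higher and 0 lower (median log2 0.69), and Gzmb averaged 6.74 TPM in WT against 4.35 TPM in cKO. Of 6 central Treg markers 0 were called higher and 2 lower (median -0.55). Of all tested genes 3.62% were higher and 1.67% lower. With the 1 TPM filter 0 genes of either list were called. The 5 B cell markers summed to 13.8 to 16.4 TPM and to 22.7 to 29.9 TPM, and all were above 1 TPM in every group. Only 2 of them reached the 5 TPM filter. Limma called 0 of these 2 ex vivo, although both had an unadjusted p under 0.05 and voom called both. The part of these markers in the NR4A changes was not tested.

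After stimulation, no member passed the limma test between genotypes, where 6.93% of all tested genes did (3.3% as higher, 3.63% as lower), and none had an unadjusted p under 0.05 or passed with voom. The log2 change from WT to cKO was -0.07 for Nr4a1 (95% interval -0.45 to 0.31, limma adjusted p = 0.834), -0.21 for Nr4a2 (-0.58 to 0.15, limma adjusted p = 0.461) and 0.08 for Nr4a3 (-0.35 to 0.50, limma adjusted p = 0.837). These intervals leave room for differences of moderate size in either direction, and the sign for Nr4a1 turned to 0.12 without cKO stimulated replicate 3 and that for Nr4a3 to -0.12 without cKO stimulated replicate 2. Under the 1 TPM filter, where 0.201% of genes were called (0.0945% as higher, 0.106% as lower), the changes were -0.38, -0.52 and -0.23 and the limma adjusted p-values 0.619, 0.441 and 0.791. The summed level of 6 central Treg markers, on TPM as deposited, was 1190 to 1412 TPM in WT stimulated and 426 to 649 TPM in cKO stimulated libraries. On that scale the median log2 change of all tested genes was -0.30. After scaling, 3 of the 6 markers were called lower and 0 higher. The part of these markers was not tested.

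To see how the family responded to T cell receptor and CD28 stimulation, each genotype was compared with its own ex vivo cells. In WT cells Nr4a3 rose, with a log2 change of 0.94 (SE 0.19, 95% interval 0.51 to 1.36, limma adjusted p = 0.00375), from 148.9 ± 32.8 to 281.7 ± 11.5 scaled TPM. Nr4a1 fell by 0.55 on the log2 scale (SE 0.17, limma adjusted p = 0.0307), from 1022 ± 183 to 691.3 ± 32.8 scaled TPM, but it was higher by 0.25 (limma adjusted p = 0.135) under quantile normalization, which forces 1 distribution on all libraries. Nr4a2 had a change of 0.23 (limma adjusted p = 0.312), against 0.69 (limma adjusted p = 0.00194) under quantile normalization, and Nr4a3 stood at 1.55 there (2.47e-05). In this comparison 32% of all tested genes were called, 12.7% as higher and 19.3% as lower. The Nr4a3 call held without each of the 12 libraries in turn. The Nr4a1 call did not, with limma adjusted p-values of 0.0655 and 0.109 without WT ex vivo replicates 1 and 3 (log2 -0.40 without the latter) and of 0.0940, 0.0612 and 0.0692 without WT stimulated replicates 1, 2 and 3. Under the 1 TPM filter, where 5.43% of genes were called (0.897% as higher, 4.53% as lower), the change was 0.68 for Nr4a3 (limma adjusted p = 0.289) and -0.81 for Nr4a1 (limma adjusted p = 0.187).

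In cKO cells Nr4a2 fell by 0.66 on the log2 scale (SE 0.17, 95% interval -1.02 to -0.29, limma adjusted p = 0.00930), from 154.7 ± 14.8 to 98.9 ± 21.8 scaled TPM, and it passed without each library in turn and with the 1 TPM filter (limma adjusted p = 0.0156, 17.4% of genes called, 2.23% as higher and 15.2% as lower), although quantile normalization put the change at 0.02 (limma adjusted p = 0.914). Nr4a3 rose by 0.55 (SE 0.19, limma adjusted p = 0.0389), from 204.04 ± 30.96 to 302.8 ± 72.6 scaled TPM, groups that overlapped, and quantile normalization put it at 1.36 (limma adjusted p = 4.80e-05). Nr4a1 had a change of 0.16 (limma adjusted p = 0.464), against 0.98 (limma adjusted p = 9.65e-05) under quantile normalization. Of all tested genes 43.8% were called, 17.3% as higher and 26.5% as lower. The Nr4a3 call was lost without cKO ex vivo replicate 2 or 3 (limma adjusted p = 0.106 and 0.102), WT stimulated replicate 2 or 3 (0.0609 and 0.0514), or cKO stimulated replicate 1 or 2 (0.0835 and 0.177, log2 0.34 without the latter), and with the 1 TPM filter its change was 0.00 (limma adjusted p = 0.999), where the median of the genes above 5 TPM stood at -0.50, so that relative to this median Nr4a3 was at 0.51, against 0.56 under the 5 TPM filter. Treg markers moved with stimulation in both genotypes. Of the 8, 0 rose and 6 fell in WT (median -0.58), beside 12.7% and 19.3% of all tested genes, and 1 rose and 6 fell in cKO (median -0.79). Their summed levels, on TPM as deposited, were 1868 to 2789 TPM ex vivo and 1327 to 1873 TPM stimulated in WT, and 2700.2 to 2946 and 960.3 to 1690.2 TPM in cKO. Of 6 effector markers 3 fell in each genotype, and of 6 central markers 3 fell and 1 rose in WT and 4 fell in cKO. With the 1 TPM filter 1 of the Treg markers fell in WT and 6 in cKO, 2 and 4 of the effector markers, and 0 and 4 of the central markers. At this filter 4.53% of all genes fell in WT and 15.2% in cKO. No marker of these lists rose there, beside 0.897% and 2.23% of all genes. The part of the markers in the NR4A changes was not tested.

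Whether the response to stimulation differed between genotypes was tested as the interaction, the change in cKO minus the change in WT. No member passed the limma test, where 1.1% of all tested genes did (0.451% as higher, 0.653% as lower), although 2 of 3 had an unadjusted p under 0.05. The interaction was 0.71 for Nr4a1 (95% interval 0.18 to 1.24, limma adjusted p = 0.202), -0.89 for Nr4a2 (-1.41 to -0.37, limma adjusted p = 0.106) and -0.39 for Nr4a3 (-0.99 to 0.21, limma adjusted p = 0.542). With the 1 TPM filter these values were 0.42, -1.18 and -0.68, and on unscaled TPM 0.18, -1.42 and -0.91. The median of the genes above 5 TPM stood at -0.30 and -0.52 in these settings. Nr4a2 passed when the recovered reads were fitted with voom (limma adjusted p = 0.0159) and without cKO stimulated replicate 2 (limma adjusted p = 0.0375), and Nr4a1 passed under quantile normalization (limma adjusted p = 0.0403). No gene was called by limma in this comparison with the 1 TPM filter, while 2405 genes had an unadjusted p under 0.05, and under the 5 TPM filter voom called 395 genes.

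**Figure D2:**
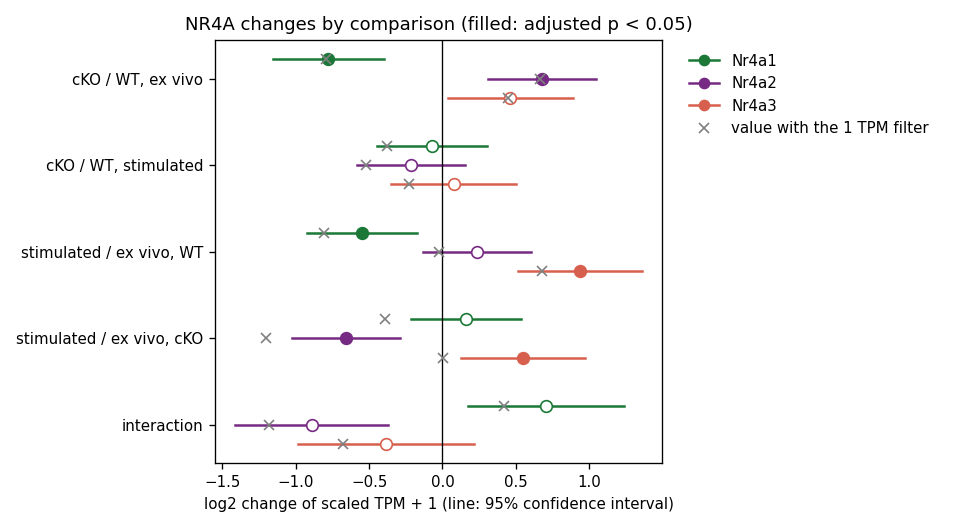
Log2 change of each member in the 5 comparisons (horizontal axis) under the 5 TPM filter, with 95% confidence intervals, filled points for an adjusted p under 0.05 and grey crosses for the value with the 1 TPM filter. Ex vivo, Nr4a1 (-0.78) and Nr4a2 (0.68) lie on opposite sides of 0, and Nr4a3 is higher after stimulation in WT (0.94) and in cKO (0.55, but 0.00 with the 1 TPM filter, which also puts the median of the genes above 5 TPM at -0.50 there). Quantile normalization, not drawn, turned the stimulation change of Nr4a1 in WT to 0.25 and that of Nr4a2 in cKO to 0.02.

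Where a library is scaled by a single factor, every member is divided by it, so that the composition of the family is unaffected while its summed level is not. Quantile normalization is no such scaling, and shares and ratios were not computed under it. Summed over the 3 genes, NR4A TPM averaged 1213 ± 296 (WT) and 1053 ± 57.7 (cKO) ex vivo and 1180 ± 144 (WT) and 966.9 ± 304 (cKO) after stimulation (SD, n = 3). Exact two-sided permutation tests of the log2 sums gave p = 0.4 between genotypes ex vivo and 0.5 between them after stimulation, and p = 0.9 with stimulation of WT and 1.0 with stimulation of cKO cells. After dividing by the scaling factors the ex vivo sums were 1268 ± 175 in WT and 949.9 ± 103 in cKO, and the libraries did not overlap (1082 to 1429 against 860 to 1063, log2 -0.41, exact permutation p = 0.1, the smallest possible). The other 3 comparisons of scaled sums gave exact permutation p of 0.8 between stimulated genotypes, 0.3 with stimulation in WT and 0.6 in cKO. Nr4a1 made up 76.6, 79.2 and 85.3% of the sum in WT ex vivo libraries. In the other 9 libraries it made up between 61.5 and 63.9%. Nr4a2 took 5.90 to 8.95% ex vivo and 9.81 to 11.3% after stimulation in WT, and 16.0 to 16.6% ex vivo and 8.38 to 9.92% after stimulation in cKO. Nr4a3 took 8.81 to 14.4% and 25.4 to 26.2% in WT, and 20.8 to 22.4% and 27.3 to 28.8% in cKO, with no overlap between any of the groups.

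**Figure D3:**
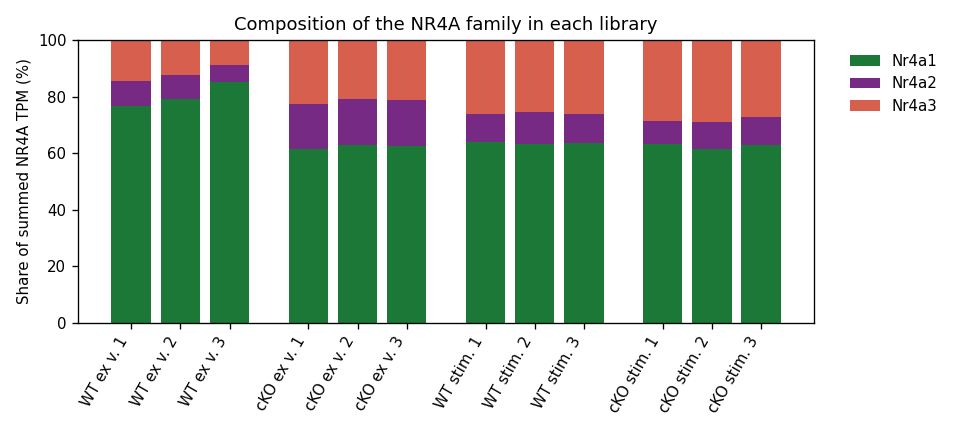
Share of the summed NR4A TPM (vertical axis, percent) contributed by Nr4a1, Nr4a2 and Nr4a3 in each of the 12 libraries. Nr4a1 contributes 76.6 to 85.3% in WT ex vivo and 61.5 to 63.9% in the other 9 libraries, the Nr4a2 band is widest in cKO ex vivo (16.0 to 16.6%), and the Nr4a3 band is widest in cKO stimulated libraries (27.3 to 28.8%).

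As ratios within a library, Nr4a2 to Nr4a1 averaged 0.0974 ± 0.0250 (WT) and 0.262 ± 0.00328 (cKO) ex vivo, and 0.164 ± 0.0131 (WT) and 0.148 ± 0.0136 (cKO) after stimulation (SD, n = 3). The ratio was thus 2.75-fold higher in cKO than in WT ex vivo by its log2 mean (exact two-sided permutation p = 0.1, the smallest that 3 libraries against 3 allow). With stimulation it was 1.72-fold higher in WT and 0.565-fold in cKO, with no overlap in either genotype (exact permutation p = 0.1 for each). Between stimulated WT and stimulated cKO cells the ratio differed by -0.15 on the log2 scale, and the libraries overlapped (exact permutation p = 0.3).

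Nr4a3 to Nr4a1 averaged 0.150 ± 0.0430 (WT) and 0.344 ± 0.0182 (cKO) ex vivo, and 0.408 ± 0.00529 (WT) and 0.451 ± 0.0170 (cKO) after stimulation. It was 2.37-fold higher in cKO than in WT ex vivo and 1.11-fold higher after stimulation, and stimulation raised its mean 2.81-fold in WT and 1.31-fold in cKO. Nr4a3 to Nr4a2, the ratio that leaves Nr4a1 out, averaged 1.53 ± 0.0742 (WT) and 1.31 ± 0.0761 (cKO) ex vivo, and 2.49 ± 0.223 (WT) and 3.06 ± 0.329 (cKO) after stimulation. Its change with stimulation was 1.63-fold in WT and 2.32-fold in cKO. The libraries did not overlap in any of these 8 comparisons, each with an exact permutation p of 0.1. Over the 12 ratio tests, 11 stood at the smallest possible p and had an adjusted p of 0.109. The exact permutation test with 3 libraries against 3 could not bring any of them under 0.05. Without each library in turn all 12 ratio differences kept their sign. WT ex vivo replicate 3, the library with Xist, had the lowest Nr4a2 to Nr4a1 ratio (0.0692) and the highest Nr4a1 share (85.3%), and without it the ex vivo difference of this ratio was 1.23 in place of 1.46 on the log2 scale and its change with stimulation in WT 0.56 in place of 0.79.

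The other genes that respond early to antigen receptor signalling gave the frame for the stimulation results. Of 39 such genes, all of which reached the 5 TPM filter, 7 rose and 24 fell in WT cells (median log2 change -1.24, against 0.00 over all tested genes, of which 12.7% rose and 19.3% fell), and 8 rose and 28 fell in cKO cells (median -1.42 against -0.01, with 17.3% and 26.5% of all tested genes). The largest changes in WT were falls of AP-1 and Krüppel-like factors. Jun, an AP-1 subunit, went from 528 ± 165 to 33.01 ± 3.41 TPM in WT (log2 -4.11, limma adjusted p = 8.31e-07), Klf4 changed by -3.83 (limma adjusted p = 1.04e-07), Fosb, another AP-1 subunit, by -3.71 (limma adjusted p = 7.28e-07) and Klf6 by -3.59 (limma adjusted p = 7.28e-07). In cKO they were Fosb (log2 -3.86, limma adjusted p = 4.16e-07), Klf4 (-3.70, 1.01e-07), Fos (-3.00, 2.37e-05) and Dusp1, a phosphatase of MAP kinases (-3.00, 1.86e-06). Among the 42 early genes with the NR4A members counted in, ordered from the highest change, Nr4a3 stood 7th in WT and 9th in cKO, Nr4a2 12th and 17th, and Nr4a1 17th and 10th. The stimulation changes of the members lay between -0.66 and 0.94, in a set whose other genes ranged from -4.11 to 2.26 over both genotypes. Counts for the 39 genes with the 1 TPM filter were 5 higher and 22 lower in WT (0.897% and 4.53% of all genes at this filter) and 1 higher and 29 lower in cKO (2.23% and 15.2%).

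**Figure D4:**
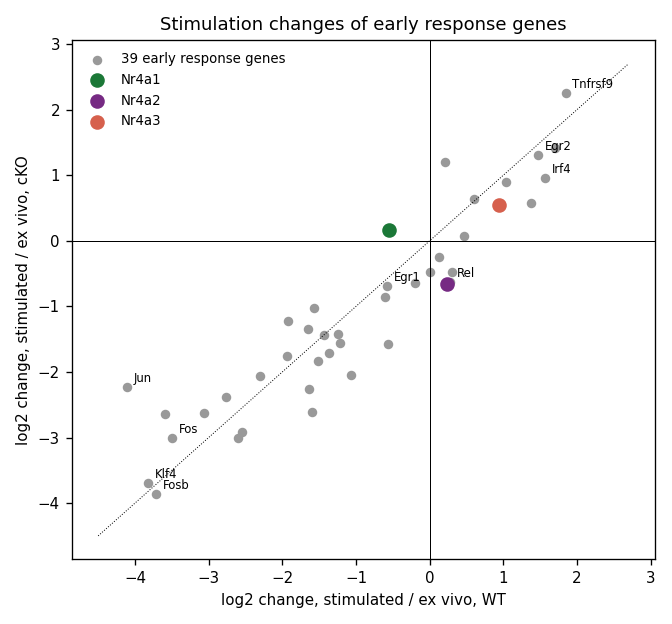
Log2 change with stimulation in WT (horizontal axis) and in cKO (vertical axis) for 39 early response genes (grey) and the 3 NR4A members (coloured), with a dotted line of equal change. Most early genes lie far down on the left, such as Jun (-4.11 in WT) and Fosb (-3.71 in WT), while Nr4a1 (-0.55 and 0.16), Nr4a2 (0.23 and -0.66) and Nr4a3 (0.94 and 0.55) lie near the centre or in the upper right; under quantile normalization Nr4a1 stands at 0.25 in WT and Nr4a2 at 0.02 in cKO.

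Ex vivo, early genes were called in both directions between genotypes. Of the 39, 7 were higher and 3 lower in cKO, with a median of 0.26 against -0.01 over all tested genes, 5.29% of which were called, and the largest changes were those of Ier3 (1.48, limma adjusted p = 0.0114), Jun (-1.28, 0.00696), Irf4 (1.12, 0.00122), a transcription factor of effector Treg, and Klf6 (-1.12, 0.00559). With the members included, Nr4a2 stood 7th of 42 from the top, Nr4a3 14th and Nr4a1 40th. After stimulation 6 of the 39 were higher in cKO and 1 lower, beside 6.93% of all tested genes called. They included Nfil3 (1.39, limma adjusted p = 0.000884), Irf8 (1.29, 0.00105), Ier3 (1.07, 0.0415) and Tnfrsf9, the costimulatory receptor 4-1BB (0.94, 0.00635). In the interaction, where 1.1% of all tested genes were called, Jun passed at 1.89 (limma adjusted p = 0.0172), Dusp2 at -1.01 (0.0168) and Nfkbia, the NF-κB inhibitor IκBα, at -0.98 (0.0494). Limma with the 1 TPM filter called none of the 39 in these 3 comparisons, with an unadjusted p under 0.05 for 10 genes in each, while voom under the 5 TPM filter called 16, 13 and 8.

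Among the genes upstream of NR4A transcription, a list of 18 calcium, calcineurin, NFAT and MEF2 regulators of which 15 were tested, 2 passed the test between genotypes ex vivo and 1 after stimulation, beside 5.29% and 6.93% of all tested genes. Ex vivo, Nfatc1, a calcineurin-dependent transcription factor, was higher in cKO (67.3 ± 13.2 against 120 ± 1.65 TPM, log2 0.61, limma adjusted p = 0.0194) and Mef2a, which binds NR4A promoters, was lower (-0.32, 0.0241). After stimulation Nfatc3 was lower in cKO (-0.56, limma adjusted p = 0.0203). With stimulation 1 of 15 rose and 6 fell in WT, and 1 rose and 8 fell in cKO, where 32% and 43.8% of all tested genes were called, with medians of -0.11 and -0.40. The gene that rose was Crem, a cAMP-responsive modulator of CREB sites, by 1.02 in WT (limma adjusted p = 9.16e-05) and by 1.66 in cKO (3.46e-06). Among those that fell were Hdac7, a repressor of Nr4a1 in thymocytes (-0.89 and -1.27), Nfatc2 (-0.93 and -0.94) and Mef2d (-0.56 and -1.03). At the 1 TPM filter 0 of 17 rose and 2 fell in WT, so that the rise of Crem there was not called, 1 rose and 10 fell in cKO (all genes at this filter: 0.897% higher and 4.53% lower in WT, 2.23% and 15.2% in cKO), and limma called none between genotypes (unadjusted p under 0.05 for 1 ex vivo and 9 after stimulation).

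The partner receptors were expressed far lower than the NR4A members. Rxra averaged 7.88 to 13.9 TPM and Rxrb 10.4 to 14.9 TPM over the 4 groups, and Rxrg, at 1.71 to 2.95 TPM, did not reach the filter. Neither tested RXR gene passed the limma test between genotypes (unadjusted p under 0.05 for 1 of 2 ex vivo, which voom also called, and 1 of 2 after stimulation), and Rxra was lower after stimulation in WT (log2 -0.28, limma adjusted p = 0.0412) and in cKO (-0.44, 0.00344). Of all 46 other nuclear receptors, 14 reached the 5 TPM filter. Nr1d1 (the circadian repressor REV-ERBα) alone, 1 of these 14 beside 5.29% of all tested genes, passed the test between genotypes ex vivo, at 3.13 ± 0.460 against 8.60 ± 1.61 TPM (log2 1.01, limma adjusted p = 0.00455). After stimulation, beside 6.93% of all tested genes called, Nr1d1 was higher in cKO (0.63, limma adjusted p = 0.0341) and Rara, the retinoic acid receptor α, lower (-0.52, 0.00527). With stimulation, where 32% of all tested genes were called in WT and 43.8% in cKO, 3 rose and 4 fell in WT, among them Nr1d2 (-0.84, limma adjusted p = 0.00441), and 3 rose and 6 fell in cKO, among them Nr1d2 (-1.15, limma adjusted p = 0.000535) and Rara (-0.94, 1.68e-05). With the 1 TPM filter limma called none of the 46 between genotypes (unadjusted p under 0.05 for 4 ex vivo and 7 after stimulation), 2 rose and 1 fell in WT, and 1 rose and 8 fell in cKO (5.43% and 17.4% of all genes at this filter called).

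A list of 14 genes that are linked to NR4A factors in T cells, as targets or as parts of the Treg and exhaustion programmes, had 13 tested members. Ex vivo 4 were called higher in cKO and 0 lower (8 had an unadjusted p under 0.05, and voom called 7 in either direction), with a median of 0.53 against -0.01 over all tested genes, of which 3.62% were higher and 1.67% lower. These were Ifng, interferon-γ (log2 1.60, limma adjusted p = 0.00616), Irf4 (1.12, 0.00122), Ikzf4, the Ikaros relative Eos (0.60, 0.0119), and Pdcd1, which encodes PD-1 (0.55, 0.0273). After stimulation, where 3.3% of all tested genes were higher and 3.63% lower, 5 were higher in cKO, among them Ifng (2.54, limma adjusted p = 0.000325), Il2 (2.10, 0.0209) and Foxp3, which defines the lineage (0.96, 0.00847), and 1 was lower, the death-promoting Bcl2l11 (-1.03, 0.00123). Foxp3 itself averaged 161 ± 42.04 TPM (WT) and 171 ± 5.44 TPM (cKO) ex vivo, and 117 ± 33.3 TPM (WT) and 192 ± 72.6 TPM (cKO) after stimulation. With stimulation 6 of 13 rose and 3 fell in WT, and 7 rose and 4 fell in cKO, beside 32% and 43.8% of all tested genes called. At the 1 TPM filter the balance differed, with 2 of 14 higher and 2 lower in WT and 3 higher and 5 lower in cKO, where the balance over all genes moved as well, to 0.897% higher and 4.53% lower in WT and 2.23% and 15.2% in cKO. Pdcd1 had the largest rise in both (3.17, limma adjusted p = 1.51e-07, and 2.46, 5.78e-07), while Ifng (-2.24, 0.000106, and -1.30, 0.00277) and Ctla4 (-1.85, 2.90e-06, and -1.38, 1.20e-05) fell in both. Foxp3, below the 4 largest changes, fell in WT (-0.66, limma adjusted p = 0.0145). With the 1 TPM filter limma called 1 of 14 between genotypes after stimulation and 0 ex vivo, where 3 had an unadjusted p under 0.05.

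The members were compared with each other and with all other tested genes, of which the closest exceed preset genes by the way they are picked. Across the 12 libraries Pearson's r of the log2 scaled TPM was -0.35 between Nr4a1 and Nr4a2 (Spearman's rho -0.24), -0.40 between Nr4a1 and Nr4a3 (-0.14) and 0.21 between Nr4a2 and Nr4a3 (0.11). The signs of both values with Nr4a3 rest on few libraries, since without the 2 WT ex vivo libraries farthest from the median of Nr4a3 (replicates 2 and 3) they turned to 0.26 and -0.30, while r between Nr4a1 and Nr4a2 was -0.16 without the 2 farthest in Nr4a1 and -0.61 without those in Nr4a2. Among 13317 other genes ordered by likeness to Nr4a1, Nr4a2 stood at place 10494 and Nr4a3 at place 11061. In the order for Nr4a2, Nr4a1 stood at place 10526 and Nr4a3 at place 4813. In that for Nr4a3, Nr4a1 stood at place 9168 and Nr4a2 at place 5199. On TPM as deposited the same r were 0.19, -0.05 and 0.50. Deviations from the group means gave 0.49, 0.55 and 0.90, so that replicates of one group moved together where groups did not. All points share the library and its scaling factor, and these values are descriptions without a test.

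Rel, which encodes the NF-κB subunit c-Rel, was the gene most like Nr4a2 by Pearson's r, and the second by Spearman's rho, after Ikzf2 (rho 0.99). In ex vivo WT cells Rel read 192, 157 and 142 scaled TPM beside 116, 90.97 and 84.4 for Nr4a2, and in ex vivo cKO cells 298, 243 and 260 beside 170, 140 and 154. After stimulation Rel read 181, 216 and 193 beside 100.3, 128 and 113 for Nr4a2 in WT, and 163, 209 and 148 beside 89.3, 124 and 83.5 in cKO. Pearson's r was 0.99 (Spearman's rho 0.98), 0.99 without the 2 libraries farthest from the median of Nr4a2, and 0.99 for deviations from the group means. Also among the 5 closest were Ikzf2, the Ikaros relative Helios (r = 0.95), the methyltransferase gene Setd7 (0.94) and the histone gene activator Npat (0.93). Like Nr4a2, Rel was higher in cKO ex vivo (log2 0.71, limma adjusted p = 0.0224) and lower after stimulation in cKO (-0.63, 0.00709). Rel was picked by its likeness to Nr4a2 over these same libraries, so these shared differences follow from the choice. Of the 5 closest genes, 3 kept their places by Spearman's rho and 3 on TPM as deposited.

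**Figure D5:**
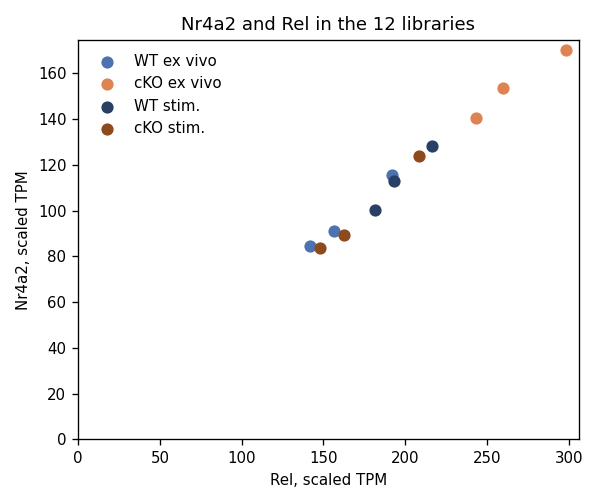
Scaled TPM of Nr4a2 (vertical axis) against scaled TPM of Rel (horizontal axis) in the 12 libraries, coloured by group, both axes from 0. The points fall along a line (Pearson's r = 0.99), with the 3 cKO ex vivo libraries at the upper end, at 140 to 170 TPM of Nr4a2 and 243 to 298 TPM of Rel.

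For Nr4a1 the closest genes were Rexo2, an oligoribonuclease (r = 0.95), Trat1, an adaptor of the T cell receptor complex (0.95), the ETS factor Elf1 (0.94), the actin-binding Twf2 (0.90) and Tex264 (0.89). Without WT ex vivo replicates 1 and 3, the libraries farthest from the median, these were 0.88, 0.89, 0.90, 0.68 and 0.68. For Nr4a3 they were Dgat1, an enzyme of triglyceride synthesis (0.97), Swap70 (0.96), Stat5a, which carries interleukin 2 signals (0.96), Ccdc6 (0.96) and Itpr1, a calcium channel of the endoplasmic reticulum (0.96), and without WT ex vivo replicates 2 and 3 the values stayed between 0.92 and 0.98. By Spearman's rho 2 of the 5 genes named for Nr4a1 and 1 of those named for Nr4a3 kept a place among the closest 5, so the names at the end of these lists depend on the measure.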

How the data were processed

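The authors sequenced rRNA-depleted, directional libraries in paired reads of 51 bp, mapped them to mm9 (STAR 2.6.0c) and assigned them to Ensembl exons on the matching strand (HTSeq 0.6.1). The deposited signal per gene is TPM, which adds up to 1000000 in each library. The log2 values deposited by the authors were taken after adding the TPM of 1 read, so that the reads behind a value could be recovered, whole within 0.01 for 99.9977% of values. The authors' table of their own test (fold changes and p-values) was not used.

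Genes that reached a mean of 5 TPM in some group (13318, or 33873 at the 1 TPM alternative) were scaled over the tested genes by a trimmed mean of M-values (30% of M and 5% of A values trimmed). Then log2(scaled TPM + 1) of all 12 libraries was fitted with limma 3.58.1 in R 4.3.3 with no covariate beside the group, and two-sided p-values had a Benjamini-Hochberg adjustment over all genes of a comparison, with calls at 0.05. Fold changes on this scale understate changes of low genes. Ratios and sums went through exact permutation tests (two-sided, scipy 1.17.1). P-values measure the spread between libraries of single animals. The genes named besides the members are up to 4 called genes per list and comparison with the largest change, all of those where 4 or fewer were called, and the 5 genes closest to each member by Pearson's r over 12 libraries, of which some are not reported here. Members, lists and the 5 TPM filter were chosen with earlier results of these data known. Alternatives were other filters, pseudocounts of 0.5 and 5, other scalings, voom on recovered reads, a replicate block, only the 6 libraries compared, and leaving out each library.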

Additional observations from a re-analysis of the deposited data

Results flagged for a closer look

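The ratio of Nr4a2 to Nr4a1 within a library moved with stimulation in opposite directions in the genotypes. Every stimulated WT library had a higher ratio than every WT ex vivo library (0.153 to 0.179 against 0.0692 to 0.117), and every stimulated cKO library had a lower ratio than every cKO ex vivo library (0.133 to 0.158 against 0.260 to 0.266). The change in cKO minus the change in WT was -1.61 on the log2 scale. This difference was not tested. The group that stood farthest from the rest was cKO ex vivo, whose 3 libraries differed by only 0.00328 (SD) in this ratio.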

How the results depend on the processing

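The median log2 change of the genes above 5 TPM, which lay between -0.035 and 0.0021 in the 5 comparisons of the report, stood with the 1 TPM filter at -0.31 between stimulated genotypes, -0.23 with stimulation in WT, -0.50 in cKO and -0.30 in the interaction, and with unscaled TPM at 0.21 ex vivo, -0.30, 0.18, -0.31 and -0.52. Taken relative to the median of each setting, the members' values differed from those of the report by at most 0.055 under both settings. The cause of the lost calls was not tested. Of the 6 calls of members under the 5 TPM filter, Nr4a1 and Nr4a2 ex vivo, Nr4a1 in WT and Nr4a3 in cKO were lost with the 1 TPM filter, without a filter and on unscaled TPM (limma adjusted p = 0.385, 0.0844, 0.392 and 0.571 in the last), Nr4a3 in WT was lost with both filters and passed unscaled (1.13, 0.0201), and Nr4a2 in cKO passed under all of these.

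With the 1 TPM filter, ex vivo Nr4a1 stood at -0.79 and Nr4a2 at 0.66. Between stimulated genotypes Nr4a3 stood at -0.23. With stimulation in WT, Nr4a1 stood at -0.81, Nr4a2 at -0.022 and Nr4a3 at 0.68, and in cKO Nr4a1 at -0.39, Nr4a2 at -1.20 and Nr4a3 at 0.00 (0.0016). The interactions were 0.42, -1.18 and -0.68. Without any filter the values were -0.77 and 0.68 ex vivo, -0.23 for stimulated Nr4a3, -0.78 and 0.71 for Nr4a1 and Nr4a3 in WT, and -0.38 and 0.013 in cKO, with Nr4a2 at -1.19 there. On unscaled TPM they were -0.54 and 0.91 ex vivo, -0.21 for Nr4a3 between stimulated genotypes, -0.35 for Nr4a1 in WT, and -0.17, -0.99 and 0.22 for Nr4a1, Nr4a2 and Nr4a3 in cKO, with interactions of 0.18, -1.42 and -0.91. Quantile normalization put Nr4a1 at 0.084 between stimulated genotypes, at 0.25 and 0.98 with stimulation in WT and cKO, and at 0.73 in the interaction, Nr4a2 at 0.69 in WT, which passed (limma adjusted p = 0.00194), and 0.020 in cKO, and Nr4a3 at 1.55 in WT, 1.36 in cKO and 0.28 between stimulated genotypes. With voom the Nr4a2 interaction was -0.90. Pseudocounts of 0.5 and 5 and median-of-ratios scaling moved no call of a member.

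Genes called ex vivo numbered 704, against 57 with the 1 TPM filter, 56 without a filter, 273 on unscaled TPM and 1203 with voom. Between stimulated genotypes they numbered 923, against 68 and 68 with those filters, 306 unscaled, 1579 after quantile normalization and 553 on 6 libraries. With stimulation in WT they numbered 4262, against 1838, 1694 and 1943 unscaled. In the interaction they numbered 147, against 0 and 0 by limma with those filters (2405 unadjusted p under 0.05 at 1 TPM), 67 unscaled, 392 after quantile normalization and 395 with voom. On unscaled TPM, higher against lower calls were 260 to 13 ex vivo (482 to 222 scaled), 69 to 237 between stimulated genotypes (439 to 484), 1175 to 768 in WT (1688 to 2574), 558 to 4116 in cKO (2305 to 3530) and 6 to 61 in the interaction (60 to 87). Quantile normalization gave 2062 to 1921 in WT.

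Same-numbered libraries showed no common deviation over all pairs (correlations -0.208 to 0.257, 2 of 18 pairs over 0.1, 6 of 12 libraries closest to their own number). The pairs of ex vivo WT and cKO libraries stood at 0.149, 0.257 and 0.078. With 3 libraries per group these values cannot exclude that the numbers pair libraries. No paired test of the ratios was run. With the replicate block, Nr4a1 stayed at -0.78 ex vivo (limma adjusted p = 0.0618) and at -0.55 with stimulation in WT (0.0599), Nr4a2 at 0.68 ex vivo (0.0659), and 65 genes passed in the interaction.

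Leaving out each library gave -0.90 to -0.65 for Nr4a1, 0.58 to 0.81 for Nr4a2 and 0.34 to 0.64 for Nr4a3 ex vivo. Between stimulated genotypes it gave -0.24 to 0.12, -0.41 to -0.08 and -0.12 to 0.29. With stimulation in WT it gave -0.67 to -0.40, 0.13 to 0.37 and 0.84 to 1.11, and in cKO -0.027 to 0.36, -0.87 to -0.50 and 0.34 to 0.78. In the interaction it gave 0.54 to 0.91, -1.09 to -0.74 and -0.58 to -0.16. Counts of called genes ran from 324 (without cKO ex vivo replicate 3) to 740 ex vivo, from 398 (without WT stimulated replicate 2) to 1054 between stimulated genotypes, and from 50 (without cKO ex vivo replicate 3) to 203 in the interaction. The summed NR4A TPM ran from -0.39 to -0.04 between genotypes ex vivo and from -0.50 to -0.04 between stimulated genotypes. With stimulation it ran from -0.23 to 0.12 in WT and from -0.34 to 0.12 in cKO, and dividing it by the scaling factors turned the latter from -0.18 to 0.15. No ratio changed direction with a pseudocount of 1 TPM, with reads in place of TPM, which leave ratio differences as they are by construction, or without any 1 library. The other settings were not run on the ratios.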
